A study of Rattus norvegicus with 8 samples.

Results

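The genes described here are 7 genes of the mitochondrial and endoplasmic reticulum routes to apoptosis, whose transcripts were measured by RNA-seq in cells of the rat nucleus pulposus, the gel-like centre of the intervertebral disc. They are Bcl2l1, Bcl2l11 and Bid of the BCL2 family, the inhibitor of apoptosis (IAP) gene Birc2, the apoptosome gene Apaf1, and the caspase genes Casp12 and Casp9_v1. They were chosen by symbol with earlier results of these data known, so that their presence in the deposited table is not a finding. All 7 are among its 4226 genes and among the 2890 that were tested, with a mean of at least 1 TPM. TPM is a transcript level scaled for transcript length and library size. In all cells SOD1, the cytosolic superoxide dismutase, had been knocked down; 4 libraries come from cells then transfected with wild-type SOD1 (SOD1-WT) and 4 from cells transfected with SOD1 carrying the K123R substitution (SOD1-K123R), a lysine replaced by arginine. Both groups received 10 mM lactate for 7 days, and no library without lactate or without transfected SOD1 was analysed here. The age, strain and number of the rats, and whether the 4 libraries of a group were separate cultures, are not given in the labels, and the p-values thus reflect the spread among these libraries alone, which may be technical. The table heads the columns of the 2 groups Ctrl and L, and the labels do not spell out the L. The library identifiers form 1 run of numbers per group, so that the order of handling and the group cannot be told apart. Sod1 itself was not analysed here, so its level in each group cannot be told apart from the substitution.

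In the mitochondrial route, BH3-only proteins such as BIM (gene Bcl2l11) and BID bind the survival proteins of the BCL2 family, among them BCL-XL (gene Bcl2l1), and switch on BAX and BAK, which open the outer mitochondrial membrane. Cytochrome c that escapes joins APAF1 in the apoptosome, a wheel-shaped complex that activates caspase-9, which in turn cleaves the executioner caspases. The IAP protein cIAP1 (gene Birc2) is a ubiquitin ligase that restrains death signals from TNF receptors, and caspase-12 is a rodent caspase of the endoplasmic reticulum linked to protein-folding stress. Loss of nucleus pulposus cells by apoptosis is a known feature of disc degeneration.

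Between SOD1-WT and SOD1-K123R cells the survival genes and the death-promoting genes rose together, while Casp9_v1 and Casp12, the 2 caspase genes among the 7, fell. Birc2 rose 5.76-fold and Bcl2l1 4.06-fold in mean TPM, more than the death-promoting Apaf1 (2.92-fold), Bcl2l11 (1.94-fold) and Bid (1.21-fold). Casp9_v1 fell 3.84-fold and Casp12 fell 1.77-fold. The calls of Bid and Casp12 depended on the scaling of the libraries, as described below. Of the 7 genes, 5 passed upward and 2 downward (limma, with Benjamini-Hochberg adjusted p below 0.05). This is read against a background in which 95.7% of the genes tested passed, 44.6% upward and 51.1% downward, so that passing does not set these genes apart from the rest of the table. The deposited table holds only some of the genes, few of them with a fold near 1, and no source used here gives the rule that chose them. SOD1-WT and SOD1-K123R values did not overlap for any of the 7 genes, as for 91.4% of the genes tested. The exact permutation test over the 8 libraries gave a two-sided p of 0.0286 for each, the smallest that 4 against 4 can give.

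**Figure D1:**
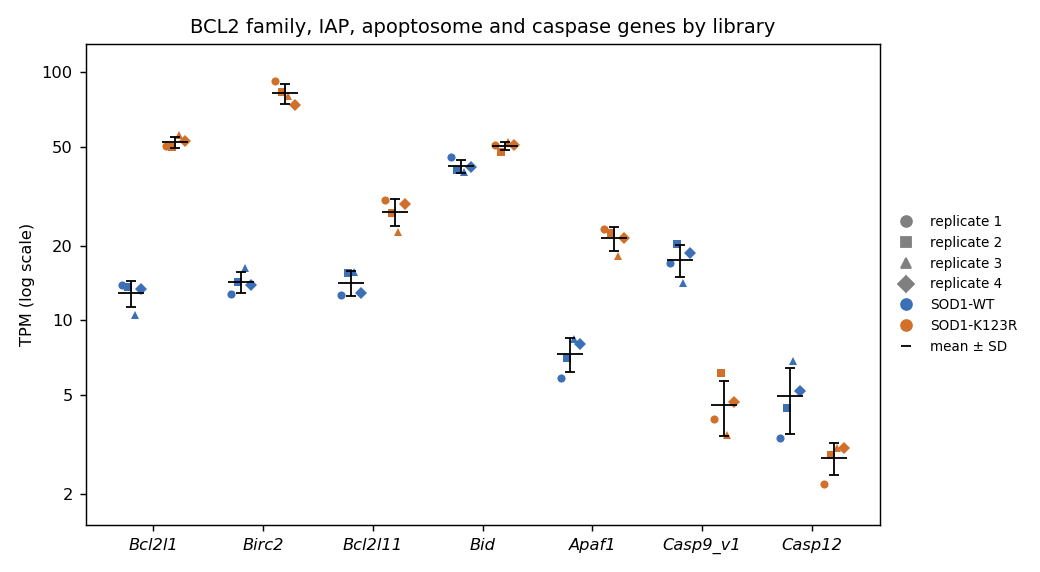
TPM (log axis) of the 7 genes in the 4 SOD1-WT (blue) and 4 SOD1-K123R (orange) libraries, with 1 marker shape for each replicate number and bars for the mean ± SD. Bcl2l1, Birc2, Bcl2l11, Bid and Apaf1 are higher in all 4 SOD1-K123R libraries than in any SOD1-WT library, and Casp9_v1 and Casp12 are lower in all 4.

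The table covered 18.8% to 19.9% of the full TPM total in SOD1-WT libraries and 23.5% to 24.3% in SOD1-K123R libraries. Libraries correlated at 0.981 to 0.994 within groups and 0.788 to 0.818 between them, across the genes tested, which are not independent replicates. SOD1-WT replicate 3 held the lowest or highest value of its group for 7 of the 7 genes, and for 66.6% of all genes tested. Without it, all 7 genes still passed in the same directions, where 95.7% of the genes tested passed with all 8 libraries. Of 15 fixed markers of nucleus pulposus cells 7 were in the table, and their summed TPM were 20.9 to 24.3 in SOD1-WT and 33.4 to 52.1 in SOD1-K123R. Of these Col2a1, the cartilage collagen gene, was at 0 in every SOD1-WT library and at most 0.08 TPM in SOD1-K123R, and the rise of the sum lay mostly in Cd24, a surface antigen, at 8.55 to 11.7 and 22.9 to 38.2 TPM. Of the 6 tested, 4 rose and 2 fell: the cadherin gene Cdh2 read 8.98 to 9.89 and 2.52 to 3.57 TPM, and the aggrecan gene Acan 1.23 to 2.16 and 0.50 to 0.72 TPM. Of 7 macrophage markers 2 were in the table (Cd68 and Lyz2), summing to 5.44 to 8.04 TPM in SOD1-WT and 23.4 to 30.9 TPM in SOD1-K123R, with Lyz2 at 0 in 3 of 4 SOD1-WT libraries. The tendon and annulus markers Scx and Thbs4 summed to 34.6 to 55.2 and 17.0 to 21.7 TPM, and Pecam1, the 1 endothelial marker of 5 in the table, read 0.06 to 0.31 and 0.32 to 0.46 TPM. The part of these markers in the results below was not tested, and in bulk RNA fewer cells of a type and less RNA per cell cannot be told apart.

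Bcl2l1 encodes BCL-XL, which holds BAX and BAK in check and binds BH3-only proteins. In SOD1-WT replicates 1 to 4 it read 13.9, 13.7, 10.6 and 13.4 TPM, and in SOD1-K123R replicates 1 to 4 it read 50.4, 49.8, 55.9 and 52.9 TPM. The SOD1-K123R libraries lay within 6.07 TPM of each other, and the lowest of them was 35.9 TPM above the highest SOD1-WT library. The mean went from 12.9 ± 1.56 to 52.3 ± 2.77 TPM (SD, n = 4 each), a log2 fold change of 1.95 on the log2(TPM + 1) scale with a 95% confidence interval of 1.73 to 2.17 (SE 0.10, limma adjusted p = 4.08e-09). Only 4.19% of the genes tested had a larger log2 fold change. The gene-level TPM do not separate the long survival form from the short form of BCL-X that promotes death.

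Birc2 had the largest rise of the 7. Its SOD1-WT libraries read 12.8, 14.3, 16.2 and 13.9 TPM and its SOD1-K123R libraries 92.2, 83.5, 80.0 and 73.7 TPM, so that every SOD1-K123R library was far above the range of the other group. Its log2 fold change was 2.44 (95% confidence interval 2.23 to 2.66, SE 0.10, limma adjusted p = 6.68e-10), and 2.25% of the genes tested had a larger one. Birc2 lies beside Birc3, a closely related IAP gene, and RefSeq lists Birc2 among the synonyms of Birc3. The level of Birc2 is therefore uncertain where reads were shared between the copies, and Birc3 was not analysed here.

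Bcl2l11 encodes BIM, a BH3-only protein that binds all survival members of the family and can activate BAX directly. It read 12.6, 15.5, 15.7 and 12.9 TPM in the SOD1-WT libraries and 30.6, 27.2, 22.7 and 29.4 TPM in the SOD1-K123R libraries. SOD1-K123R replicate 3 was the lowest of its group and still 7.07 TPM above the highest SOD1-WT library. The log2 fold change was 0.91 (95% confidence interval 0.65 to 1.16, SE 0.12, limma adjusted p = 8.51e-06), a size that 28.5% of the genes tested exceeded.

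Bid, whose protein is cut by caspase-8 and then carries the death signal from surface receptors to mitochondria, had the log2 fold change nearest 0 of the 7 in the deposited TPM and with quantile normalization, though not with median-of-ratios scaling, where that of Casp12 was nearer. It read 45.6, 40.5, 39.6 and 41.6 TPM in SOD1-WT and 51.0, 47.5, 52.5 and 50.9 TPM in SOD1-K123R. The groups were close, with 1.99 TPM between the highest SOD1-WT and the lowest SOD1-K123R library. The log2 fold change was 0.27 (95% confidence interval 0.09 to 0.44, SE 0.08, limma adjusted p = 0.00669). This call depended on the scaling: with quantile normalization it missed the threshold at 0.11 (limma adjusted p = 0.227), and with median-of-ratios scaling it stood at 0.71 (limma adjusted p = 0.000206). Median-of-ratios scaling shifted the typical log2 fold change of all genes by 0.39 and quantile normalization by 0.20.

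Apaf1 encodes the scaffold of the apoptosome. SOD1-WT libraries read 5.85, 7.05, 8.43 and 8.01 TPM, and SOD1-K123R libraries read 23.4, 22.5, 18.2 and 21.5 TPM. SOD1-K123R replicate 3 was again the lowest of its group. The log2 fold change was 1.43 (95% confidence interval 1.16 to 1.71, SE 0.13, limma adjusted p = 2.82e-07), and 11.7% of the genes tested rose by more.

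Casp9_v1 is the table's name for a caspase-9 gene, described there as caspase-9 with a divergent carboxyl terminus. RefSeq gives the name as a synonym of Casp9, and the gene-level TPM do not say which form was transcribed. It moved against Apaf1, its partner in the apoptosome. SOD1-WT libraries read 17.0, 20.3, 14.2 and 18.7 TPM and SOD1-K123R libraries 4.02, 6.12, 3.44 and 4.70 TPM. The highest SOD1-K123R library was below the lowest SOD1-WT library by 8.04 TPM, and replicate 3 was the lowest of each group. The log2 fold change was -1.75 (95% confidence interval -2.09 to -1.40, SE 0.16, limma adjusted p = 3.44e-07), and 7.79% of the genes tested had a lower one.

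Casp12 was the least abundant of the 7. It read 3.35, 4.42, 6.85 and 5.20 TPM in SOD1-WT and 2.19, 2.86, 3.06 and 3.06 TPM in SOD1-K123R. SOD1-WT replicate 1 lay 0.29 TPM above the highest SOD1-K123R library, and the SOD1-WT libraries spread over more than the distance between the group means. The log2 fold change was -0.62 (SE 0.17, limma adjusted p = 0.00385). Genes tested had a median log2 fold change of -0.49, and 47.6% of them had a lower value than Casp12. The call was lost with median-of-ratios scaling, where Casp12 stood at -0.27 (limma adjusted p = 0.109), and with quantile normalization, at -0.29 (limma adjusted p = 0.0998).

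**Figure D2:**
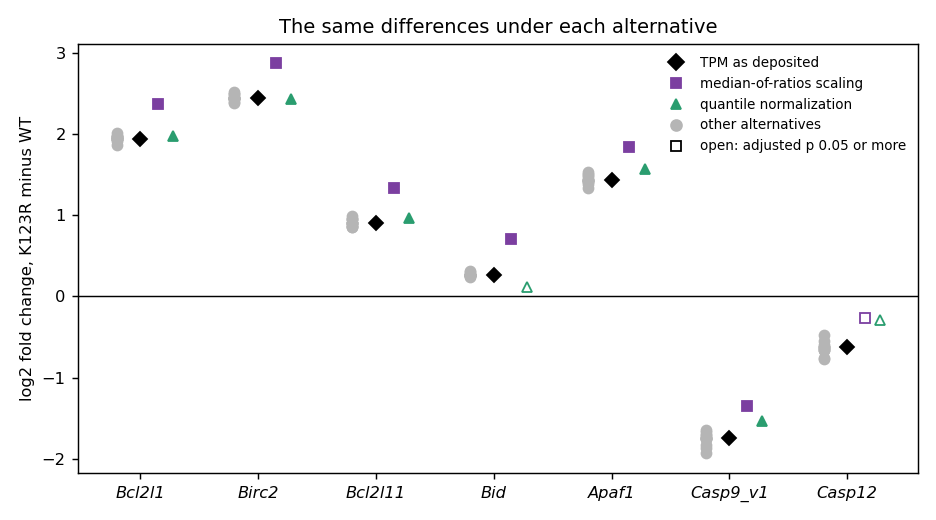
Log2 fold changes (SOD1-K123R minus SOD1-WT) of the 7 genes from the deposited TPM (black diamonds), after median-of-ratios scaling (violet squares), after quantile normalization (green triangles) and under the other alternatives (grey circles). Open symbols, at an adjusted p of 0.05 or more, occur for Bid after quantile normalization (0.11) and for Casp12 after both scalings (-0.27 and -0.29); no gene changes sign.

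The order of the genes by level differed between the groups. TPM are scaled for length, so that levels of different genes can be set side by side. In SOD1-WT cells Bid was the most abundant at 41.8 ± 2.63 TPM, above every value of the rest. Casp9_v1 (17.5 ± 2.62 TPM), Birc2 (14.3 ± 1.42), Bcl2l11 (14.1 ± 1.64) and Bcl2l1 (12.9 ± 1.56) followed, and each of these overlapped the next in its range over the 4 libraries. Apaf1 (7.34 ± 1.15) and Casp12 (4.96 ± 1.47) came last and also overlapped. In SOD1-K123R cells Birc2 led at 82.4 ± 7.74 TPM, ahead of Bcl2l1 (52.3 ± 2.77) and Bid (50.5 ± 2.10), whose ranges overlapped. Bcl2l11 (27.5 ± 3.46) and Apaf1 (21.4 ± 2.29) overlapped as well, and Casp9_v1 (4.57 ± 1.16) and Casp12 (2.79 ± 0.413) lay apart at the bottom. Casp9_v1 thus went from the second place to the sixth, and Birc2 from the third place to the first.

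Ratios between genes of the same library describe this shift without depending on any factor common to that library, and they were not tested. The ratio of Bcl2l1 to Bcl2l11 was 1.10, 0.884, 0.675 and 1.04 in SOD1-WT replicates 1 to 4 and 1.65, 1.83, 2.46 and 1.80 in SOD1-K123R. The transcript of the survival protein was thus near parity with that of BIM in SOD1-WT and above it in every SOD1-K123R library. The ratio of Bcl2l1 to Bid was 0.267 to 0.338 in SOD1-WT and 0.988 to 1.06 in SOD1-K123R. Birc2 over Casp9_v1 lay between 0.706 and 1.15 in SOD1-WT and between 13.6 and 23.3 in SOD1-K123R. Birc2 over Casp12 lay between 2.37 and 3.83 in SOD1-WT and between 24.1 and 42.1 in SOD1-K123R. The ratio of the apoptosome partners Apaf1 and Casp9_v1, added after the values were seen, was 0.345, 0.348, 0.595 and 0.428 in SOD1-WT and 5.83, 3.68, 5.28 and 4.58 in SOD1-K123R. Casp9_v1 was the more abundant of these partners in all 4 SOD1-WT libraries and Apaf1 in all 4 SOD1-K123R libraries.

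**Figure D3:**
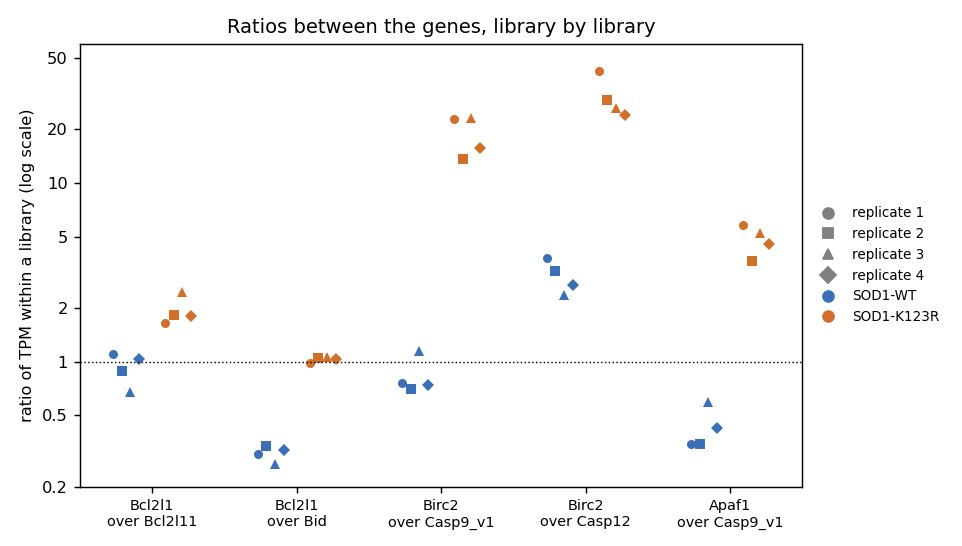
Ratio of TPM between genes within each library (log axis; dotted line at equal TPM), with SOD1-WT in blue, SOD1-K123R in orange and 1 marker shape for each replicate number. The groups do not overlap in any of the ratios shown. Birc2 over Casp9_v1, Birc2 over Casp12 and Apaf1 over Casp9_v1 each set a rising gene over a falling one. Their separation thus follows from that of the single genes, whose groups do not overlap. Apaf1 over Casp9_v1 is at most 0.595 in SOD1-WT and at least 3.68 in SOD1-K123R.

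All 7 genes matched a RefSeq gene of the GRCr8 assembly, 6 by symbol and Casp9_v1 as a synonym of Casp9; no source used here gives the build behind the deposited TPM. The 250 bases before the start were searched on both strands for the motifs of factors in the fixed list of regulators and for the GC box, after results were known. FOXO factors (TGTTTAC) are known regulators of Bcl2l11, and Foxo1 and Foxo3 both rose, as described below. This motif was found in 3.21% of 33469 RefSeq windows of the same length. Among the 7 genes it was in the windows of Bcl2l11 and Casp12, which moved in opposite directions. The part of FOXO factors in either change was not tested. The GC box GGGCGG, found in 30.5% of windows, occurred in those of Bcl2l11, Apaf1, Bid and Casp9_v1. No motif overlapped another in the windows printed. The windows of the rising Bcl2l11 and Apaf1 and of the falling Casp12 are shown because they alone among the 7 genes end at the outermost annotated start, with FOXO and GC box matches in capitals.

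Bcl2l11 (GRCr8 chr3:135819792-135820041, plus strand): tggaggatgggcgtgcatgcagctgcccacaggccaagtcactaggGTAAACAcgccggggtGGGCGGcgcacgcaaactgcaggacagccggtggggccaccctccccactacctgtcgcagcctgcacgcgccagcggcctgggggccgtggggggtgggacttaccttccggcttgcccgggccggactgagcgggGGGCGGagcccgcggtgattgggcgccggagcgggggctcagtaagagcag
Apaf1 (GRCr8 chr7:27466773-27467022, minus strand): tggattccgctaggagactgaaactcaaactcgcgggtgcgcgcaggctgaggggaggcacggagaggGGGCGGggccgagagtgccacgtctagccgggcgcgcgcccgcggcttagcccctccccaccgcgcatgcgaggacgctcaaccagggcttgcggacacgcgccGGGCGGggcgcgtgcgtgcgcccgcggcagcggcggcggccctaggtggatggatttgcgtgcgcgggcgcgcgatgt
Casp12 (GRCr8 chr8:10926938-10927187, plus strand): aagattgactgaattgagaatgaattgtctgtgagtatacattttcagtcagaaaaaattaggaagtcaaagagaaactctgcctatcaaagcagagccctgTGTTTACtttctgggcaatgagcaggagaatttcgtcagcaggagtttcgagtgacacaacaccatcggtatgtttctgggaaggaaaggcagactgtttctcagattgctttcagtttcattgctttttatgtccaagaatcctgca

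The FOXO match of Bcl2l11 lies 204 to 198 bases before the start, on the minus strand, where it reads GTAAACA in the printed direction, and that of Casp12 lies 148 to 142 bases before it. The Bcl2l11 and Apaf1 windows hold 72.0% and 74.0% G and C, more than 94.0% and 95.8% of all windows, and the Casp12 window 40.4%, more than 14.7% of them. Base composition did not follow the direction of change over the 7 genes: the window of the falling Casp9_v1 holds 73.2% G and C, and that of Birc2, which rose most, 34.4%. CG dinucleotides number 22 in the Bcl2l11 window, 39 in that of Apaf1 and 3 in that of Casp12. The AP-1 motif TGANTCA (6.34% of windows) occurred in the Birc2 window, and the E2F motif TTTNGCGC (1.04% of windows) in 1 of 4 windows of Bcl2l1. A C/EBP-ATF motif, TGATGCAA (0.693% of windows), was in none of the windows of the 7 genes. A match is a run of letters and not a shown binding site.

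Other genes of cell death were taken from 12 lists naming 100 genes, the 7 included. Of the other 93 genes, 24 were in the table, and of 21 rows tested 11 rose, 9 fell and 1, Bcl2a1, did not pass. Over all genes tested, 44.6% rose and 51.1% fell. The median log2 fold change of the 21 rows was 0.71, beside -0.49 over all genes tested. Few genes of the table had a fold near 1, so a small difference in this split can move the median far. The lists were not tested as a set. No gene of the BAX and BAK effectors or of the mitochondrial IAP antagonists was among the rows, so these steps were not analysed here.

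Among the survival genes of the BCL2 family, 3 of 4 tested rose, Bcl2l1 included, where 44.6% of all genes tested rose. Mcl1, a short-lived survival protein, was above the other 3 survival genes in every library, at 149, 147, 149 and 134.5 TPM in SOD1-WT and 236, 238, 251 and 241 TPM in SOD1-K123R. Its log2 fold change was 0.73 (SE 0.07, limma adjusted p = 7.40e-07), and the groups did not overlap. Bcl2, the founding member, rose from 1.39 ± 0.425 to 2.88 ± 0.421 TPM. Bcl2a1 read 1.86 to 3.95 TPM in SOD1-WT and 1.58 to 6.35 TPM in SOD1-K123R, which overlap (log2 fold change 0.06, 95% confidence interval -0.54 to 0.66). Of the 5 BH3-only genes in the table, 4 were tested and 3 rose, Bcl2l11 and Bid included. Bbc3, which encodes the p53-induced PUMA, rose from 4.72 ± 0.365 to 15.1 ± 1.88 TPM, and Bnip3l, a mitophagy receptor with a BH3-like stretch, fell from 127 ± 18.3 to 59.3 ± 10.8 TPM. Hrk lay below the filter, at 0.00 to 0.02 TPM in SOD1-WT and 0.32 to 0.50 TPM in SOD1-K123R, as did the BCL2-like gene Bcl2l14, at 1.35 to 2.07 and 0.22 to 0.49 TPM.

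The second IAP gene in the table, Birc5, went against Birc2. It encodes survivin, which also serves chromosome segregation in mitosis, and fell from 35.1 ± 5.08 to 12.9 ± 0.738 TPM. Cradd, the adaptor of caspase-2, fell from 2.93 ± 0.733 to 0.883 ± 0.217 TPM. Casp1 was below the filter at 0.07 to 0.59 and 0.15 to 1.68 TPM.

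The death receptor branch, which meets the mitochondrial route at Bid and in which cIAP1 acts, gave 3 genes. Fadd, the adaptor that recruits caspase-8, fell from 5.85 ± 0.220 to 2.31 ± 0.221 TPM, and Ripk1, the kinase that cIAP1 ubiquitinates, fell from 10.96 ± 1.77 to 4.47 ± 0.813 TPM. Traf2, which brings cIAP1 to the TNF receptor, rose from 29.1 ± 3.88 to 65.8 ± 7.00 TPM. Thus Birc2 and Traf2 rose while Ripk1 fell. Of the genes of other forms of lytic death, Pycard, an inflammasome adaptor, rose (log2 fold change 1.48) and Gsdme, a pore-former cut by caspase-3, fell (-0.96). Parp2, a DNA damage enzyme, fell (-1.04).

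The fixed list of regulators of BCL2-family and apoptosome genes named 15 genes, of which 6 were tested. Of these 5 rose, beside 44.6% of all genes tested, and the list was not tested as a set. Foxo3 rose from 8.47 ± 1.39 to 21.8 ± 1.30 TPM and Foxo1 from 4.47 ± 0.374 to 8.99 ± 1.08 TPM. Both encode forkhead factors held in the cytoplasm by AKT, and TPM do not show where the proteins were. Ddit3, the stress factor CHOP that can induce Bcl2l11, had a log2 fold change of 3.37 under its main identifier, and a second row named Ddit3 was at 0.50 TPM or less. Jun (1.11) and Trib3 (1.29), a CHOP target, rose. E2f1, a known activator of Apaf1 transcription, fell from 24.0 ± 2.59 to 4.04 ± 0.556 TPM, opposite to Apaf1.

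**Figure D4:**
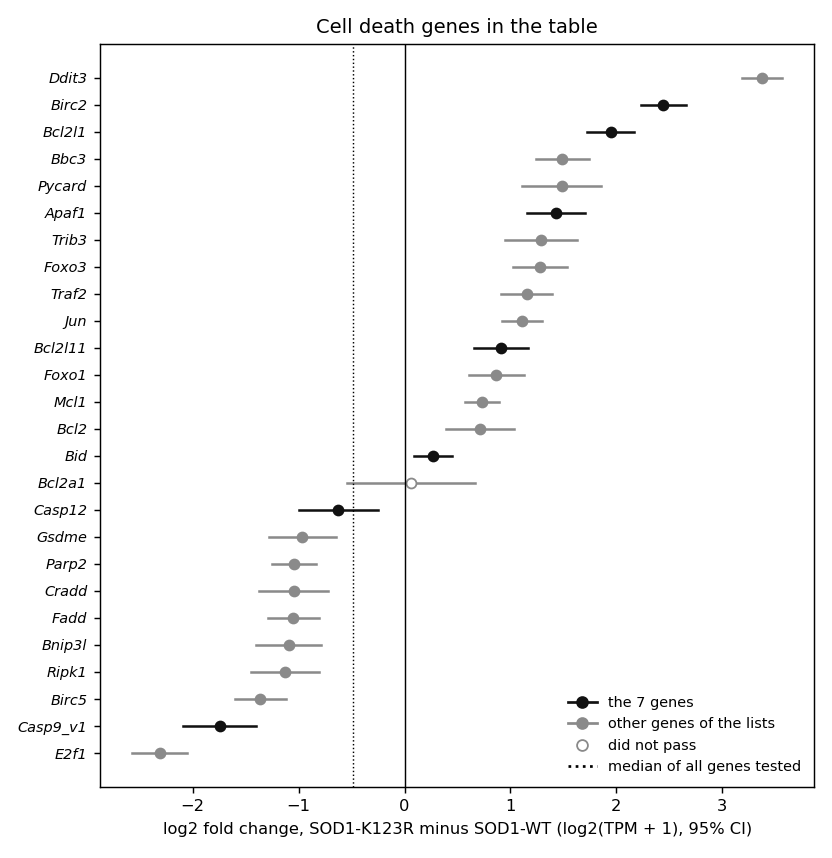
Log2 fold change (SOD1-K123R minus SOD1-WT, log2(TPM + 1)) with 95% confidence interval for the 7 genes (black) and other tested genes of the lists named in the text (grey); the dotted line marks the median of all genes tested (-0.49). Birc2 (2.44) and Bcl2l1 (1.95) rank behind only Ddit3 (3.37), Casp9_v1 (-1.75) is above only E2f1 (-2.31), and Bcl2a1 (open) did not pass.

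By the table's own annotation, 21 genes belonged to the KEGG pathway Apoptosis, all of them tested, including Apaf1, Birc2, Bcl2l11 and Casp9_v1. Of the other 17, 9 rose, 7 fell and 1 did not pass, beside 44.6% up and 51.1% down over all genes tested. The median log2 fold change of these 17 was 0.48. Those with the smallest adjusted p were Ddit3, Gadd45b (log2 fold change 3.99) and Gadd45a (3.50), both growth-arrest genes, among the genes that rose, and Birc5, the lamin gene Lmnb2 (-1.24) and Fadd among those that fell. In the GO terms for negative and positive regulation of the apoptotic process, added after the table was seen and without the 7 genes, 32 of 49 and 33 of 45 tested genes rose, and 13 and 11 fell. The medians were 0.71 and 0.87, beside -0.49 over all genes tested, of which 44.6% rose and 51.1% fell, and the terms were not tested against each other. The terms shared 7 of these tested genes.

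Over the 8 libraries, the genes whose log2(TPM + 1) correlated most with Birc2 were Vegfa (Pearson r 0.9996), an angiogenic factor, and Zmat3 (0.9991), a p53 target. For Bcl2l1 they were Prkd2 (0.998), a kinase, and Tap2 (0.998), a peptide transporter of antigen presentation, and for Apaf1 they were Uhrf2 (0.999) and Gpbp1l1 (0.999). Bcl2l11 was nearest to Hspbap1 (0.994) and to Nbr1 (0.992), an autophagy receptor, and Casp9_v1 to Ccdc91 (0.993) and Coa4 (0.992). Correlations this high were common, and all 8 points share the difference between the groups. Of the genes tested, 28.7% reached 0.95 with Birc2, 26.1% with Bcl2l1 and 21.9% with Casp9_v1. Bid (nearest to Armc5 at 0.991 and Jdp2 at 0.971) and Casp12 (nearest to Ten1 at 0.988 and Mcm8 at 0.952) had such correlations with only 1.35% and 0.138% of the genes tested. These values describe the 8 libraries and carry no test.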

How the data were processed

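RNA-seq was measured in 8 libraries, placed in groups of 4 by their genotype labels. The authors deposited 1 table of gene-level TPM, named as output of RSEM, with 1 column per library. The submitters' processing notes name DESeq2 without a role; no aligner, genome build or annotation is given in the sources used here. TPM keep no read counts, so depth is unknown. The 7 genes and the gene lists were chosen with earlier results of these data known.

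The 2890 genes averaging 1 TPM or more over the 8 libraries were kept, and 1336 were left out. TPM were taken as log2(TPM + 1), so changes of low genes come out smaller, and limma 3.58.1 estimated the difference SOD1-K123R minus SOD1-WT (lmFit, eBayes with a trend; two-sided) in R 4.3.3. P-values were adjusted by the Benjamini-Hochberg method over all genes tested, and a gene passed under 0.05. Errors of TPM are SD over 4 libraries, and errors of log2 fold changes are moderated SE. The code was tested on simulated data. By rule, the 7 genes and every list gene in the table were named, then the 3 KEGG Apoptosis genes of smallest adjusted p in each direction and the 2 genes most correlated with each of the 7. Some list genes are counted but not reported here by name. Alternatives were other scalings, pseudocounts and filters, no trend, a replicate block and leaving out each library.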

Additional observations from a re-analysis of the deposited data

Results flagged for a closer look

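Among 68 groups of 4 values examined (each named and tested gene and each ratio in each group), 5 held a library far from the other 3, where chance flags about 1 in 20. The SOD1-WT libraries held Bcl2l1 at 13.4 to 13.9 TPM except replicate 3, at 10.6 TPM. Its log2 fold change without that library was 1.86. In the same library the ratio of Birc2 to Casp9_v1 was 1.15, against 0.706 to 0.756 in the other SOD1-WT libraries. The ratio of Bcl2l11 to Bid was 0.433 in SOD1-K123R replicate 3 and 0.572 to 0.599 in the rest of its group. For Bnip3l, 3 SOD1-K123R libraries lay at 64.4 to 64.9 TPM, and replicate 4 at 43.1 TPM. For Mcl1, 3 SOD1-WT libraries lay at 147 to 149 TPM, and replicate 4 at 134.5 TPM.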

How the results depend on the processing

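Over 15 alternatives, the log2 fold changes of Bcl2l1 (1.86 to 2.37), Birc2 (2.39 to 2.87), Apaf1 (1.34 to 1.84), Bcl2l11 (0.86 to 1.33) and Casp9_v1 (-1.94 to -1.35) kept their direction and passed throughout. Bid lost its call after quantile normalization (0.11), and Casp12 after quantile normalization (-0.29) and median-of-ratios scaling (-0.27); the cause was not tested. At a mean of at least 5 TPM Casp12 was not among the genes tested. Bcl2a1, which did not pass, changed sign without SOD1-WT replicate 4 (-0.12) and without SOD1-K123R replicate 1 (-0.19), within a range of -0.19 to 0.31 over the libraries left out. Leaving out single libraries ended no call of the 7 genes. Same-numbered libraries did not deviate together across genes (correlations of -0.35, 0.016, -0.204 and 0.0536 for numbers 1 to 4). These correlations cannot decide whether the numbers pair the samples, since a shared effect in few genes could go unseen. Adding a replicate block lowered the SE of Casp9_v1 (0.157 to 0.115) and Casp12 (0.173 to 0.143) and raised that of the rest of the 7. With a replicate block 7 of 7 genes and 20 of 21 other list genes passed, as without it. Without a block, 95.7% of all genes tested passed, so these counts do not set the genes apart. Depth is unknown, so counting error cannot be set, least of all for Casp12, the gene of lowest TPM among the 7.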
